A study of Rattus norvegicus with 6 samples.

Results

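Cell adhesion genes of the cadherin and immunoglobulin families were examined in rat aortic smooth muscle cells under fluid shear stress. The 9 genes were Icam1, Vcam1, Ncam1, Alcam, Thy1, Cdh2, Cdh11, Cdh13 and the connexin gene Gja1, a gap junction gene grouped with them. They were found as every probe set whose platform annotation gave exactly 1 of these symbols, which came to 20 of 31099 probe sets on the array, and to 9 of 14217 genes named there. Vcam1, Icam1 and Alcam had 1 probe set each, Thy1 had 2 and the other 5 genes had 3 each.

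Expression was measured on Affymetrix rat arrays in 3 sheared and 3 static cultures of aortic smooth muscle cells of passage 3 to 5. Sheared monolayers were confluent and lay for 24 h under laminar flow of 14 dyn per square centimetre in a parallel-plate chamber; static control cultures had no flow. All cultures had first spent 24 h in medium in which 0.1% albumin replaced the 10% serum. Each sheared culture carried the same pairing number, 1 to 3, as 1 static culture; what a pair had in common is not stated. The p-values therefore cover only the scatter among these 6 arrays, part of which may be technical.

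Cadherins join cells by binding the like cadherin on the neighbour, and the classical members Cdh2 (N-cadherin) and Cdh11 anchor to actin through catenins. Cdh13 (T-cadherin) has no such tail and is held in the membrane by a lipid anchor. Icam1 and Vcam1 are docking sites for leukocyte integrins, are made by activated vascular cells including smooth muscle, and are known targets of the transcription factor NF-kappaB. Ncam1 and Alcam bind themselves or related partners between cells, Thy1 is a small lipid-anchored surface protein, and Gja1 forms the channels that couple neighbouring smooth muscle cells.

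The promoters of Vcam1, Icam1, Gja1 and Alcam are shown because they alone of the 9 genes had a sequence available. On the arrays Vcam1 and Icam1 changed with opposite sign, and Gja1 and Alcam fell clearly. RefSeq sequence of build GRCr8 was available for these 4 of the 9 genes, as windows from 250 bases before the transcript start to 50 after it. Capitals mark matches, on either strand, to a relaxed NF-kappaB pattern (GGANNTNCC), an AP-1 pattern (TGANTCA) or a TATA pattern (TATAAA).
Vcam1, chr2:206742734-206743033, minus strand: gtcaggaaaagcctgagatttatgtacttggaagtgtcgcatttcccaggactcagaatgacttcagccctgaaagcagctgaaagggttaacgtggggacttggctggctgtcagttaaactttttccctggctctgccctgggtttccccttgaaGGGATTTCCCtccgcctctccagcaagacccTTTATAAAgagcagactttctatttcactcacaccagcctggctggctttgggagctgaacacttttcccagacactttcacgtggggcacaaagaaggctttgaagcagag
Icam1, chr8:27829595-27829894, plus strand: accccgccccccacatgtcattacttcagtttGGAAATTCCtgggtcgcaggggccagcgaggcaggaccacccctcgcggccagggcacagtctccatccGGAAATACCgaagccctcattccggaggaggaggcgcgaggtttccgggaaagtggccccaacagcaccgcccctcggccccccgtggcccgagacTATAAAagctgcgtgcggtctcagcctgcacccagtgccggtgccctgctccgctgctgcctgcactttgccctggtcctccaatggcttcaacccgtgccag
Gja1, chr20:36302314-36302613, plus strand: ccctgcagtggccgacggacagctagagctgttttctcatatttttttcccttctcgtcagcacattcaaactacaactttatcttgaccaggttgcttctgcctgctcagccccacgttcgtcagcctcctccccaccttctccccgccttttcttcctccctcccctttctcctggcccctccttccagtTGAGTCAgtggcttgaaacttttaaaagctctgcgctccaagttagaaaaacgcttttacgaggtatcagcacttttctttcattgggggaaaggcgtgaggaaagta
Alcam, chr11:61805207-61805506, plus strand: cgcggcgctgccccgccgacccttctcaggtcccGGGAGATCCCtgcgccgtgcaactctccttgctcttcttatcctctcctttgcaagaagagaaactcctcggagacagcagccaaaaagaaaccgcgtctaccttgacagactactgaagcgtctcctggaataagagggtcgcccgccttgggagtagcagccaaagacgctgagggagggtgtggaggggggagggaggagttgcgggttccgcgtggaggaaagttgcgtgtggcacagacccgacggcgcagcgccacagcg

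The NF-kappaB pattern was found in the Vcam1 window 93 to 84 bases before the start, where matches on both strands overlap. In the Icam1 window it was found 218 to 210 bases before the start on both strands and 149 to 141 bases before it on the plus strand, and in the Alcam window 216 to 207 bases before it as overlapping matches on both strands. Of all 33469 promoter windows 14.14% held this pattern. Vcam1 and Icam1 also held the TATA pattern, which 14.22% of windows held. The Gja1 window held the AP-1 pattern, which reads as a match on both strands, 58 to 52 bases before the start; 7.329% of windows held it. A match describes letters only; binding was not measured.

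Across the cadherin and immunoglobulin genes, sheared cells had less message of most members. Of the 20 probe sets 18 passed the filter on low signal and were tested. At an adjusted p of 0.05, 10 fell, 1 rose and 7 did not pass (limma, Benjamini-Hochberg over all probe sets). Among the 10, Cdh11 1391146_at passed the filter through its static signals alone. Over all 21729 probe sets tested, 52.8% passed, 28.5% as fallen and 24.3% as risen. With the brightest tested probe set standing for each gene, 6 genes fell, 1 rose and 2 did not pass, against 57.9% of 11248 genes passing, 30.1% as fallen and 27.8% as risen. The median log2 fold change of the 18 probe sets was -0.46, and that of all tested probe sets was -0.067. The signals of sheared and static arrays did not overlap in 11 of the 18 probe sets, those that passed. Over all probe sets tested a similar share, 60.0%, did not overlap. Fold changes here are differences of log2(signal + 16), so they understate the change of dim probe sets.

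**Figure D1:**
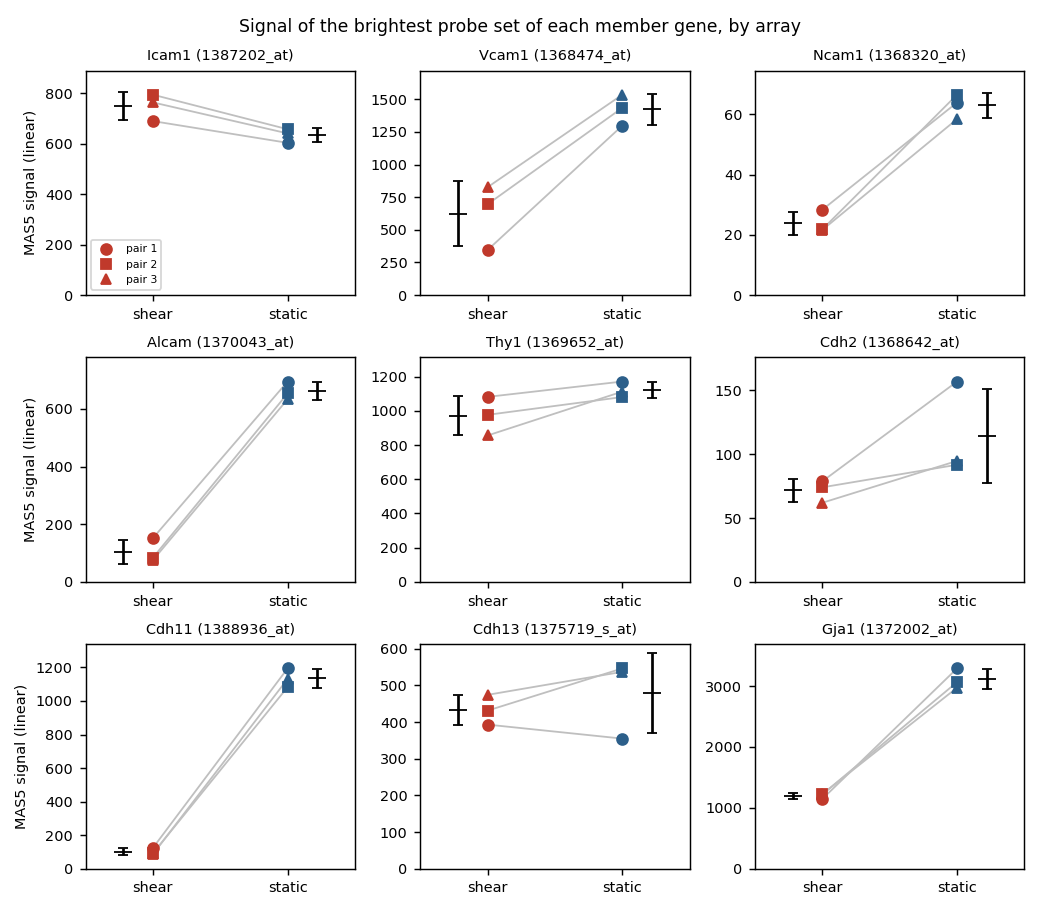
MAS5 signal on a linear scale (vertical axes, each from 0) of the brightest probe set of each of the 9 genes in sheared cells (left, red) and static cells (right, blue); symbols are pairs 1 to 3, grey lines join a pair, and black bars are mean and SD of 3 arrays. Cdh11 lay at 86.9 to 124.0 in sheared cells and 1083 to 1194 in static cells, whereas the groups overlapped for Cdh13 and Thy1.

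Arrays were scaled alike, with a trimmed mean of 100.0 on each and medians of 17.3 to 18.9 on sheared and 21.1 to 22.6 on static arrays. Sheared and static arrays parted along the first principal component (85.8% of variance), and the second, with 6.28%, set sheared array 1 apart from the other sheared arrays. Centring arrays on their medians moved the median change of all probe sets to 0.082 from -0.067, so small changes depend on the scaling. Risen probe sets made up 46.1% of all calls as scaled by the authors and 59.1% after that centring, which left 1 risen and 7 fallen among the 18 probe sets of the 9 genes. The 3′ to 5′ log2 ratio of the beta-actin control was 0.365, 0.421 and 0.394 in sheared cells and 0.293, 0.250 and 0.221 in static cells. That of Gapdh was 0.162, 0.150 and 0.157 in sheared cells and 0.155, 0.173 and 0.171 in static cells. The part of these differences in the results was not tested.

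All 8 smooth muscle markers of the list were above the filter. Their summed signal was 3999 to 4142 in sheared cells and 5534 to 6192 in static cells. The brightest, Tagln, averaged 2815 in sheared and 2684 in static cells and did not pass, nor did Des (17.2 and 16.8). Acta2 (836.1 and 1811) and Mylk (70.3 and 593.3) were among those that fell. Of the 8 markers 6 fell and 0 rose, where 30.1% of all genes tested fell and 27.8% rose. Among the fallen, Lmod1 (6.1 in sheared and 72.4 in static cells) passed the filter through its static signals alone. Its call is therefore no separate support. Of 13 endothelial markers on the array 8 were below the filter, and their summed signal was 217.3 to 233.7 in sheared cells and 231.2 to 258.6 in static cells. Of this list Pecam1 (3.47 and 3.73), Kdr (2.00 and 4.33), Vwf (2.17 and 3.37) and Nos3 (1.13 and 0.900; means of sheared and of static cells) were near 0. Others of the list were above the filter: Egfl7 (79.4 and 110.5) fell, Flt1 (53.6 and 27.8) rose, and Erg (40.6 and 44.1), Esam (23.1 and 20.3) and Tek (13.9 and 15.8) did not pass. Of 10 leukocyte markers 3 were below the filter, with 3 risen and 1 fallen, and the sum was 184.8 to 239.5 in sheared cells and 216.2 to 282.0 in static cells; the pan-leukocyte marker Ptprc averaged 1.87 in sheared and 1.43 in static cells. In the same list Cd14 (107.9 and 181.9) fell, and Lcp1 (35.4 and 12.6), Cd68 (25.8 and 10.1) and Coro1a (12.2 and 4.83; means of sheared and of static cells) rose. Among the leukocyte markers Coro1a passed the filter through its sheared signals alone, so its call as risen is no separate support. The part of these markers in the results on the adhesion genes was not tested. Fibroblast markers were all above the filter, 2 risen and 4 fallen of 8, with a sum of 4339 to 7325 in sheared cells and 5328 to 7767 in static cells. Among the fallen, Twist2 (2.97 in sheared and 37.8 in static cells) passed the filter through its static signals alone. Neural and Schwann markers, with 1 risen and 1 fallen of 3 tested, summed to 99.6 to 127.4 in sheared cells and 67.3 to 95.9 in static cells, of which S100b (81.6 and 20.6) made the larger part in sheared cells. Sox10 averaged 2.07 in sheared and 2.30 in static cells. Of 7 mesothelial and epithelial markers 3 were below the filter and 1 rose, with a sum of 81.8 to 105.6 in sheared cells and 76.3 to 83.8 in static cells. In such cultures, fewer cells of a type and less RNA per cell cannot be told apart.

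Vcam1 fell while Icam1 rose slightly. Vcam1, the vascular ligand of integrin Itga4 with Itgb1, had signals of 345.1, 695.9 and 826.6 in sheared cultures 1 to 3 and 1299, 1435 and 1536 in static cultures 1 to 3. Every sheared culture lay below every static one, and sheared culture 1, the array that stood apart, was the lowest. Vcam1 fell, with a log2 fold change of -1.26 (95% interval -1.66 to -0.86), at an adjusted p of 0.00055. Single pairs gave -1.86, -1.03 and -0.88, and the change without pair 1 was -0.95. Spread within the sheared group was wide for this gene, with a mean of 622.5 ± 249.0 against 1423 ± 119 in static cells (SD, n = 3 each).

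Icam1, the ligand of leukocyte integrins that pair with Itgb2, had signals of 689.5, 794.2 and 763.6 in sheared cells and 603.3, 657.2 and 640.7 in static cells. The groups did not overlap, although the gap between the nearest arrays was small. On the log2 scale Icam1 rose by 0.23 (95% interval 0.057 to 0.41) at an adjusted p of 0.033. That is a ratio of 1.18, and the change was positive in all 3 pairs (0.19, 0.27 and 0.25). After median centring it was 0.38. It did not pass after quantile normalization (0.16, adjusted p = 0.10), without the intensity trend (adjusted p = 0.096), or without pair 2 or pair 3 (adjusted p = 0.22 in both). Over the 13 other fits its adjusted p ran between 0.0022 and 0.22, and 9 of them passed. The interval of Icam1 lay wholly above 0 and that of Vcam1 wholly below it.

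Alcam, which binds itself and the leukocyte receptor Cd6, fell strongly. Its signals were 151.6, 83.7 and 75.3 in sheared cells and 695.2, 653.8 and 633.8 in static cells, with sheared culture 1 the highest of the sheared group. The mean signal in static cells was 6.38 times that in sheared cells. On the scale of log2(signal + 16) the fold change was -2.55 (95% interval -2.91 to -2.20), at an adjusted p of 1.1e-05. Of all probe sets tested 170 had a lower fold change.

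Ncam1, a homophilic adhesion molecule best known from nerve and muscle, was dim on all 3 of its probe sets. The brightest (1368320_at) had signals of 28.3, 21.8 and 21.6 in sheared cells and 63.9, 66.5 and 58.4 in static cells, groups that were well apart, and fell by 0.99 on the log2 scale (adjusted p = 0.00032). With a pseudocount of 64 the change was -0.53. Probe set 1379389_at had 40.7, 19.9 and 34.7 in sheared cells and 53.9, 47.9 and 41.6 in static cells, and the groups nearly touched. It fell by 0.44 (adjusted p = 0.042), a call that 7 of 13 other fits did not make, among them those without the replicate block (adjusted p = 0.059) and without pair 2 (-0.24, adjusted p = 0.31); its adjusted p over those fits was 0.0099 to 0.31. The third (1377368_at) was below the filter, at 9.7, 2.0 and 0.3 in sheared cells and 13.1, 10.2 and 6.9 in static cells.

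Thy1, the lipid-anchored surface protein often used as a marker of stromal cells, did not pass on either probe set. The brighter (1369652_at) had 1082, 976.9 and 856.2 in sheared cells and 1172, 1081 and 1113 in static cells; sheared culture 1 overlapped the static range by a narrow margin. The difference was -0.21 on the log2 scale (95% interval -0.39 to -0.025, adjusted p = 0.057). Quantile normalization (-0.28) and leaving out pair 1 (-0.26) each brought it past the threshold, with an adjusted p of 0.0022 to 0.57 over the other fits, and was -0.061 after median centring. The other probe set (1369651_at) gave -0.20 (adjusted p = 0.17), with 0.11, -0.26 and -0.45 in pairs 1 to 3, and passed only without pair 1 (-0.35).

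Among the cadherins Cdh11 changed most, Cdh2 less, and Cdh13 did not pass. Cdh11, the cadherin of mesenchymal and bone-forming cells, had signals of 124.0, 91.3 and 86.9 in sheared cells and 1194, 1083 and 1131 in static cells on its brightest probe set (1388936_at). Each group was tight, and static means were 11.3 times those of sheared cells. Its log2 fold change came to -3.32 (95% interval -3.56 to -3.07), at an adjusted p of 1.5e-06. Pairs 1 to 3 gave -3.11, -3.36 and -3.48, and 43 of 21729 probe sets had a lower change.

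The other Cdh11 probe sets were dim. On 1391146_at the signals were 0.1, 0.1 and 1.9 in sheared cells and 26.6, 20.0 and 24.6 in static cells. Sheared cells were at the floor of the scale there, so no ratio is given. The probe set passed the filter through its static signals alone, so its call as fallen is no separate support. Its log2 fold change was -1.25 (adjusted p = 0.00017) and moved with the pseudocount, to -0.44 at 64. On 1391088_at the signals were 20.0, 7.1 and 13.6 in sheared cells and 15.8, 12.0 and 21.3 in static cells, groups that overlapped, and the difference did not pass (-0.14, adjusted p = 0.45). As a mean over the 3 probe sets Cdh11 fell by 1.57 (adjusted p = 5.2e-05), less than by its brightest one.

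Cdh2, the main classical cadherin between smooth muscle cells, fell on its 2 brighter probe sets. On 1368642_at its signals were 78.8, 74.1 and 62.0 in sheared cells and 157.0, 91.8 and 94.8 in static cells, and on 1387259_at 77.9, 69.5 and 52.3 in sheared cells and 125.6, 90.0 and 83.1 in static cells. On both, static culture 1 was the highest and the remaining static cultures lay only a little above the sheared ones. The log2 fold changes were -0.54 (95% interval -0.87 to -0.22, adjusted p = 0.012) and -0.48 (95% interval -0.75 to -0.21, adjusted p = 0.0096). Neither passed after median centring (-0.40, adjusted p = 0.057, and -0.33, adjusted p = 0.051), nor 1387259_at without pair 3 (-0.45, adjusted p = 0.072); over the other fits the adjusted p ran between 0.0088 and 0.057 for the first and between 0.0049 and 0.072 for the second. The dim probe set 1378271_at, with 10.3, 3.3 and 2.0 in sheared cells and 5.2, 21.9 and 5.6 in static cells, did not pass (-0.31, adjusted p = 0.30).

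Cdh13 gave -0.12, -0.11 and -0.19 on the log2 scale on its 3 probe sets, and none passed (adjusted p = 0.39, 0.35 and 0.29). The brightest (1375719_s_at) had 393.3, 431.5 and 474.5 in sheared cells and 355.1, 546.6 and 537.3 in static cells, so that static culture 1 lay below all sheared cultures. The 95% intervals were -0.38 to 0.13 for 1375719_s_at, -0.34 to 0.11 for 1369425_at and -0.51 to 0.13 for 1373102_at. Those intervals lay wholly above that of the brightest Cdh11 probe set. Without pair 1 the first and the third passed as fallen (-0.25 and -0.28), and after median centring the first and second were 0.028 and 0.034.

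**Figure D2:**
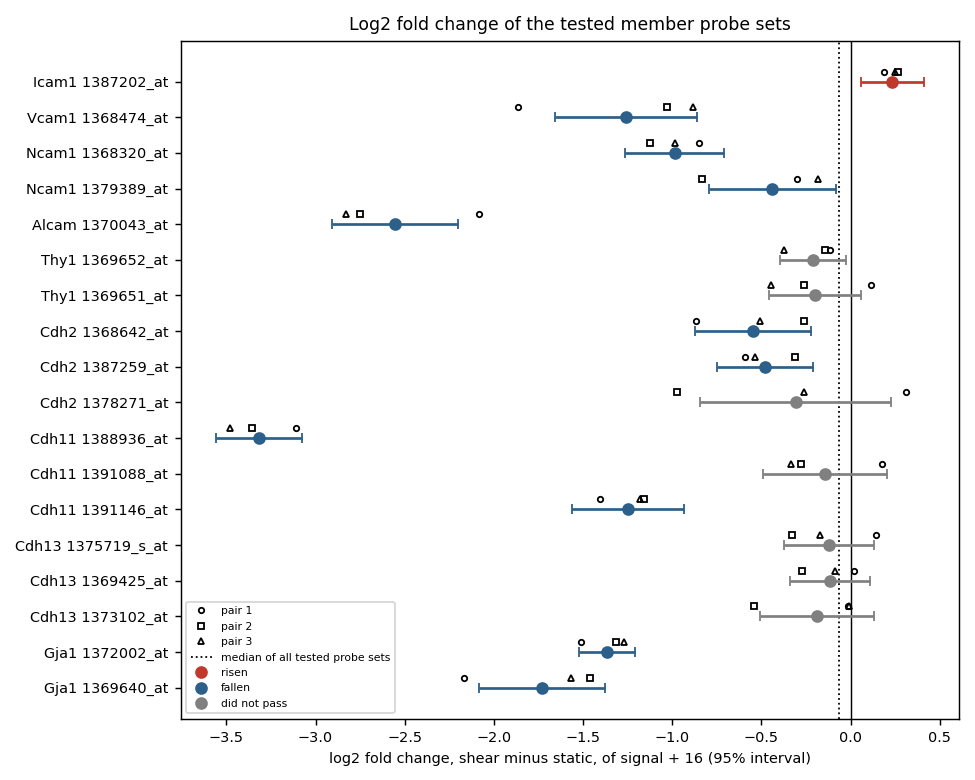
Log2 fold change of signal + 16, sheared minus static (horizontal axis), of the 18 tested probe sets; filled points with bars are limma estimates with 95% intervals (red risen, blue fallen, grey did not pass), open symbols are single pairs, and the dotted line is the median of all tested probe sets (-0.067). Probe sets of Cdh11 lay between -3.32 and -0.14, those of Cdh13 between -0.19 and -0.11, and Icam1 was the 1 probe set that rose.

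Gja1, whose connexin is the main one of cultured smooth muscle cells, fell on both probe sets above the filter. On 1372002_at the signals were 1146, 1222 and 1225 in sheared cells and 3290, 3065 and 2974 in static cells. The spread within either group was small beside the gap, and Gja1 fell by 1.36 on the log2 scale (95% interval -1.52 to -1.21) at an adjusted p of 5.4e-06, with static means 2.60 times those of sheared cells. On 1369640_at they were 59.8, 67.8 and 83.8 in sheared cells and 324.6, 215.1 and 279.3 in static cells, a log2 fold change of -1.73 (95% interval -2.08 to -1.38) at an adjusted p of 6.0e-05. The third probe set (1369639_at) was below the filter, at 5.5, 0.6 and 6.5 in sheared cells and 7.2, 3.5 and 11.3 in static cells.

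Over the 6 arrays Cdh11, Alcam, Ncam1 and Gja1 followed each other more closely than Vcam1 followed them, although Vcam1 fell more than Ncam1. Pearson correlations on the log2 scale among these 4 genes were 0.97 to 0.995, whereas Vcam1 correlated with them at 0.73 to 0.87 and Cdh13 with them at 0.18 to 0.24. The arrays fall into a sheared and a static group, so for genes whose groups lie apart these values largely restate that split. The genes most like Cdh11 were Phyh and Lmnb1 (both r = 0.999 or above, n = 6 arrays), with 3269 probe sets at a correlation of at least 0.95. For Alcam they were Vps16 and Cdca2, for Gja1 Cyp26b1 and Commd1, and for Ncam1 Msrb1 and Cope, with 3159, 2745 and 3170 such probe sets. Vcam1 was most like Zdhhc14 (0.999) and Ubxn8 (0.998), with 262 such probe sets, and Icam1 most like Hps6 and Ppp2cb (0.997 and 0.996), with 506. Thy1 was most like Snx1 (0.993) and Swt1 (0.993), Cdh2 most like Atp1b2 (0.993) and Mrpl58 (0.989), and Cdh13 most like Plxdc2 (0.994) and Itgal (0.986), with 137, 91 and 27 such probe sets.

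Other cadherin genes were set beside the members, and each list beside all genes tested, of which 30.1% fell and 27.8% rose. Of 32 on the array 16 were tested, of which 9 fell, 1 rose and 6 did not pass, with a median log2 fold change of -0.95 against -0.053 over all genes. The protocadherin Pcdh19 had 23.2, 34.5 and 29.2 in sheared cells and 223.1, 223.8 and 191.1 in static cells, and fell by 2.35 (adjusted p = 7.0e-06). Pcdh20 (-2.27), P-cadherin Cdh3 (-1.89) and the calsyntenin Clstn1 (-1.36) fell as well. The desmosomal cadherin Dsc2 rose by 2.27, with 156.5, 70.0 and 71.2 in sheared cells and 11.7, 3.7 and 5.0 in static cells, where static signals were near the floor. Dsc2 passed the filter through its sheared signals alone, so its call as risen is no separate support. With pseudocounts of 1 and 64 the value for Dsc2 was 3.71 and 1.17, and that for Pcdh20 was -3.45 and -1.20.

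Catenins and other junction adaptors, some of which link cadherins to the cytoskeleton, were read next. Of 17 tested 4 rose, 6 fell and 7 did not pass, against 27.8% risen and 30.1% fallen over all genes. Their median was -0.089. Plakophilin Pkp2, a desmosomal plaque protein, had 20.0, 23.7 and 21.6 in sheared cells and 254.1, 231.0 and 228.6 in static cells, and fell by 2.75 (adjusted p = 3.0e-06). With a pseudocount of 64 its change was -1.81. Plakoglobin Jup (-1.76), the actin-binding Lima1 (-1.61) and Ajuba (-1.29) fell as well. Plakophilin Pkp1 (1.24), alpha-catenin Ctnna1 (0.46), Afdn (0.90) and the beta-catenin inhibitor Ctnnbip1 (0.59) rose, though 1 of 3 Afdn probe sets and 2 of 3 Ctnnbip1 probe sets did not pass as risen, nor Ctnnbip1 without pair 3. Beta-catenin Ctnnb1 and p120-catenin Ctnnd1, direct tail partners named after their values were seen, did not pass. They were not the only possible tail partners in the list, where plakoglobin Jup fell (-1.76). Ctnnb1 gave -0.089 (95% interval -0.21 to 0.035, adjusted p = 0.20), but passed as fallen after quantile normalization (-0.23, adjusted p = 0.0063) and was 0.060 after median centring. Ctnnd1 gave -0.24 (95% interval -0.49 to 0.011, adjusted p = 0.098).

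Connexins other than Gja1, listed with pannexins, were mostly dim: 7 of 12 on the array were tested. Of these 2 fell and 1 rose, against 30.1% and 27.8% of all genes. Gjb2 had 9.0, 1.4 and 14.8 in sheared cells and 176.1, 179.0 and 198.1 in static cells, and fell by 3.08 (adjusted p = 5.4e-06). Sheared signals were near the floor, and the value was -4.68 with a pseudocount of 1 and -1.78 with a pseudocount of 64. The endothelial connexin Gja4 (-0.36, adjusted p = 0.045) fell and Gja3 (0.47, adjusted p = 0.029) rose, both from dim signals. On its other tested probe set Gja3 (0.13) did not pass. Neither call held without the replicate block (adjusted p = 0.054 and 0.11). Leaving out pair 1, 2 or 3 also lost Gja4, and leaving out pair 2 or 3 lost Gja3. Gja4 did not pass after quantile normalization (-0.22, adjusted p = 0.20), after median centring (-0.21, adjusted p = 0.22), with a pseudocount of 1 (-0.47) or without the filter. Gja3, whose groups overlapped, did not pass with a random block (adjusted p = 0.099) or without the filter (adjusted p = 0.066), and ran between 0.18 and 1.02 with the pseudocount. Gja6 did not pass (-0.37, adjusted p = 0.068), but passed as fallen without pair 1 (-0.49).

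Other immunoglobulin adhesion molecules split into 5 risen, 11 fallen and 13 not passed of 29 tested, against 27.8% risen and 30.1% fallen over all genes. Their median was -0.18. Cd200, whose receptor sits on myeloid cells, had 198.5, 239.6 and 279.7 in sheared cells and 1573, 1393 and 1476 in static cells, and fell by 2.56 (adjusted p = 4.0e-06). Cadm1 fell by 1.31 on its brighter probe set, where the change was -0.86 with a pseudocount of 64. On its other tested probe set it fell by 2.79. The poliovirus receptor homologue Pvr had 1405, 1870 and 1795 in sheared cells and 399.5, 271.1 and 285.8 in static cells, and rose by 2.36 (adjusted p = 2.3e-05). Its binding partner Nectin3 rose by 0.98, though 1 of 3 probe sets did not pass, and Mpzl1 (0.58), Bsg (0.38) and Jam3 (0.37) rose too, Jam3 not without pair 2 or pair 3. Fewer of the list fell after quantile normalization (7) or median centring (5), with the stricter filter (7 of 15 tested) and without pair 2 (7).

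Ligands, membrane anchors and sheddases of the members rose in 7 of 15 tested cases and fell in 3. Over all genes 27.8% rose and 30.1% fell, and the list median was 0.19. The sheddase Adam17 (0.41, adjusted p = 0.0079) rose and Adam10 (-0.076) did not pass. The leukocyte partners Itgb2 (0.19), Itgal (-0.071) and Cd6 (-0.075) did not pass either. The hyaluronan receptor Cd44 rose by 2.05, the receptor Fgfr1, a partner of Ncam1 and Cdh2, by 1.24, and the integrin subunit Itgb3 by 1.77. Itgb3 was dim in static cells, and its value was 2.71 and 0.90 with pseudocounts of 1 and 64. The actin linker radixin Rdx (-0.82), syndecan Sdc4 (-0.80) and the integrin subunit Itgav (-0.31) fell, but 2 of 5 Rdx and 2 of 3 Itgav probe sets did not pass as fallen, and Itgav reached 1.31 on another probe set. Itgav did not pass after median centring (-0.16) or without pair 2 or pair 3. Ezrin Ezr (0.67) and moesin Msn (0.30), which anchor Icam1 and Vcam1 to actin, rose. So did the Vcam1 receptor subunit Itgb1 (0.24), but its partner subunit Itga4 was not among the genes tested. Ezr, Msn and Itgb1, like the sheddases and leukocyte partners, were named after their values were seen. Itgb1 did not pass after quantile normalization (0.072, adjusted p = 0.24) or without the intensity trend, and was 0.39 after median centring. Msn was 0.14 after quantile normalization.

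NF-kappaB subunits and feedback genes were read beside Icam1 and Vcam1. Of 12 tested 5 rose and 4 fell, against 27.8% and 30.1% of all genes, with a median of 0.19. The subunits Rela (1.01), Relb (1.13) and Nfkb2 (0.64), the inhibitor Nfkbib (0.83) and the kinase Chuk (0.43) rose. The atypical inhibitor Nfkbiz (-3.02), the transcription factor Irf1 (-1.63), the feedback enzyme Tnfaip3 (-0.96) and the subunit Nfkb1 (-0.57) fell. Nfkbia (0.25), Birc3 (0.13) and Ikbkb (-0.36), named after their values were seen, did not pass. With a pseudocount of 64 the changes were smaller for Irf1 (-1.06), Tnfaip3 (-0.59), Relb (0.61) and Nfkb2 (0.35). Chuk did not pass without pair 3, nor Nfkb1 without pair 2 or pair 3.

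**Figure D3:**
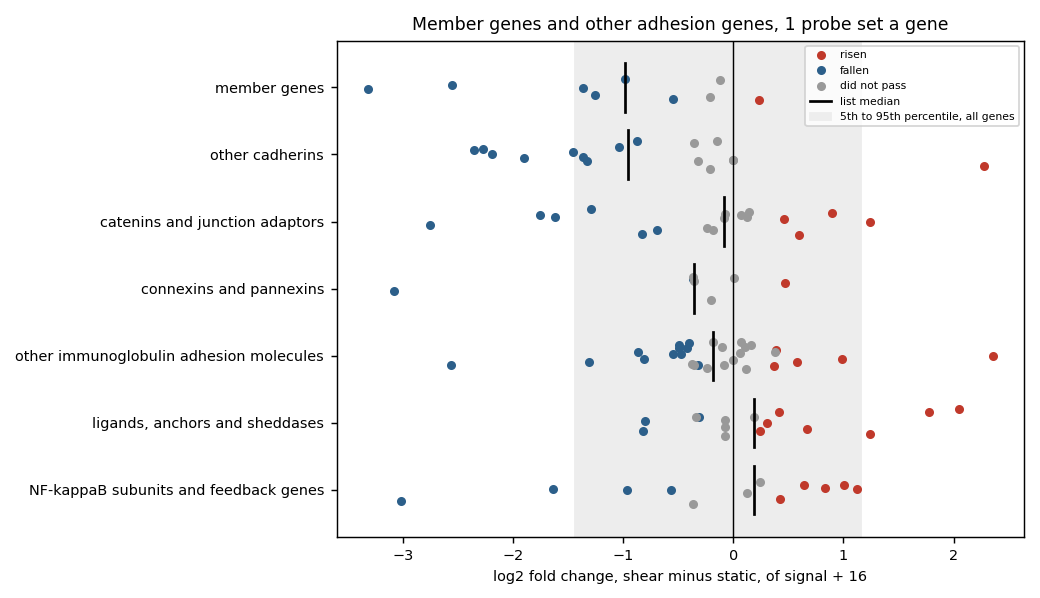
Log2 fold change of signal + 16, sheared minus static (horizontal axis), of each tested gene in 7 gene groups (rows), with 1 probe set a gene; colours give the call, black bars the median of a group, and the grey band runs from the 5th to the 95th percentile of 11248 genes (-1.44 to 1.16). Medians lay at -0.99 for the 9 genes studied and -0.95 for the other cadherins, and at 0.19 for the ligands and for the NF-kappaB genes.

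**Figure D4:**
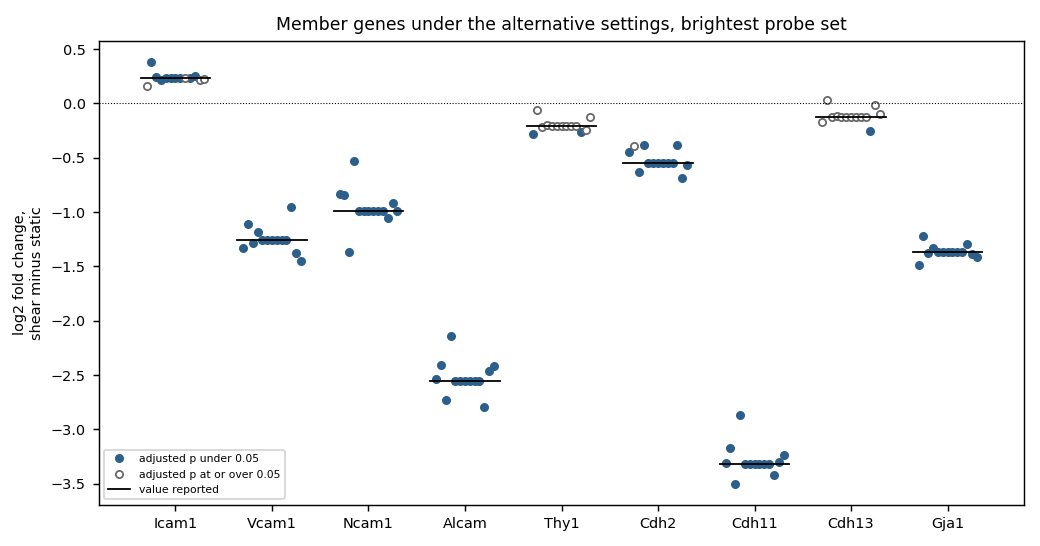
Log2 fold change, sheared minus static (vertical axis), of the brightest probe set of each of the 9 genes under the other settings; filled points passed at an adjusted p of 0.05, open points did not, and the black line is the value reported. Cdh11, Alcam, Gja1, Vcam1 and Ncam1 passed in all 13 other fits, Cdh2 in 12 and Icam1 in 9.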

How the data were processed

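Total RNA of 6 cultures was hybridised to Affymetrix rat arrays, 1 array a culture. The deposited intensity values are linear, 1 per probe set, and came from MAS5 per the submitters' processing notes, which name no version. Detection calls were not used here, so a low signal may be background. The number of arrays limits the precision.

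After 57 controls were left out, the platform annotation paired 20826 of 31042 probe sets with 1 symbol, 436 with several and 9780 with none; 20758 were matched by identifier to a GRCr8 gene table and 0 symbols changed. The arrays come with no stated build, so only promoter windows have coordinates. A value of 16 was added before log2, and probe sets in the lowest 30% by mean signal (limit 4.50 on the log2 scale) were left out. The contrast of shear and static was fitted by limma 3.58.1 under R 4.3.3 (lmFit, then eBayes with trend), where pairing number was a fixed block; tests were two-sided, with Benjamini-Hochberg adjustment over all 21729 probe sets. The block follows the series' design text, which calls the experiment paired. Deviations from group means correlated by 0.071, 0.065 and 0.063 within pairs 1 to 3. The highest correlation with a static culture of another number was -0.029, 0.018 and -0.024 for sheared cultures 1 to 3. All these values are small.

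Every probe set of the 9 genes is named. From each other list, up to 4 genes by smallest adjusted p were named, and all of a direction with 5 or fewer calls; for each of the 9 genes, the 2 genes with the highest correlation were named. The genes and lists were chosen with earlier results of these data known. Alternatives were quantile normalization, median centring, pseudocounts of 1 and 64, no filter and a 50% filter, no block and a random block, untrended and robust eBayes, the omission of each pair, a threshold of 0.01 and the mean over probe sets. Plots used matplotlib 3.10.9 (Python 3.11.15).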

Additional observations from a re-analysis of the deposited data

How the results depend on the processing

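Under the 13 other fits the calls for Vcam1, Alcam, Gja1 (both probe sets), Cdh11 (1388936_at) and Ncam1 (1368320_at) kept their direction and passed. Cdh11 1391146_at also passed as fallen in the 11 fits that tested it. It came through the filter by its static signals alone, so those calls are no separate support for Cdh11. The count of called probe sets of the 9 genes was 8 to 11 in fits with all pairs, and 9 to 16 with a pair left out; fits without a pair rest on 1 residual degree of freedom and on variance borrowed from other probe sets. Without the replicate block 10 were called, and Ncam1 1379389_at (-0.44, adjusted p = 0.059) was the 1 lost; a random block lost it too (adjusted p = 0.052). That probe set also did not pass after quantile normalization or median centring (both -0.29), with a pseudocount of 1 (-0.63) or without the filter (-0.44), and ran between -0.57 and -0.24 with a pair left out. Icam1 did not pass after quantile normalization (0.16) or without the trend (0.23), and was 0.22 to 0.26 with a pair left out. Cdh2 did not pass after median centring (-0.40 and -0.33), and with a pair left out ran between -0.69 and -0.38 on 1368642_at and between -0.56 and -0.42 on 1387259_at. At a threshold of 0.01 Icam1 (0.23), Ncam1 1379389_at (-0.44) and Cdh2 1368642_at (-0.54) did not pass. Thy1 1369652_at passed after quantile normalization (-0.28). With a pair left out, Thy1 ran between -0.26 and -0.13 on 1369652_at and between -0.35 and -0.074 on 1369651_at, Cdh13 between -0.25 and -0.016 on 1375719_s_at and between -0.28 and -0.010 on 1373102_at, and Cdh2 1378271_at between -0.62 and 0.024. Without pair 2, Cdh2 1378271_at changed sign (0.024). After median centring, signs turned for Cdh11 1391088_at (0.0050), Cdh13 1375719_s_at (0.028) and 1369425_at (0.034), and Ctnnb1 (0.060); none of these 5 passed before or after. The cause of these shifts was not tested. As means over probe sets, no call for the genes with several tested probe sets changed.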
